A study of Mus musculus with 11 samples.

Results

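The 38 genes described here are 24 genes of glycolysis and 14 genes of the response to low oxygen, taken by gene symbol from the 24490 genes counted in each library. All 38 symbols were found. The series measured mRNA by RNA-seq in primary granulosa cells of RjOrl:SWISS mice, the somatic cells that surround the oocyte in the ovarian follicle. Cells in 6-well plates received 30 pmol of siRNA with Lipofectamine RNAiMax, which was taken off at 5 h, before RNA extraction at 30 h. All groups thus share the transfection, and the labels name no untransfected group. The 3 scramble libraries came from cells given a nontargeting siRNA. The other 8 came from cells given siRNAs against Akt1, 2 libraries from each of 4 pools, and each pool held 3 of 4 siRNAs. Pool 1 left out siRNA 9, pool 2 left out siRNA 7, pool 3 left out siRNA 8 and pool 4 left out siRNA 6, if the pools of the protocol and of the sample titles are matched by number, which is an assumption. Pools 1, 3 and 4 then share siRNA 7. No label gives the age of the mice or tells whether replicates are separate cultures. The p-values therefore measure the spread of these libraries only, which may be technical.

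Each library held 23851293 to 32643158 reads in genes, and levels are given as CPM, the usual count scaled to the library's total in genes. Scramble replicate 1 was unlike the rest: across genes it correlated with them at a median of 0.948, and no other library was below 0.990 to 3 digits. The glycolysis genes are among those it differs in. Relative to scramble replicates 2 and 3, the median member of the glycolysis list was 0.40 higher in it on the log2 scale and the median hypoxia member 0.24 higher, against 0.03 over all genes tested. Comparisons with scramble are therefore made with and without this library. With all libraries only Slc16a1, Slc2a1, Slc2a3, Hk1, Pfkl and Ndrg1 were called in a single pool, so every other call of a member against scramble below is without it. Of 15 granulosa markers, Inha, the inhibin alpha subunit, had the highest level, while Fshr, the receptor for follicle-stimulating hormone, and Amh, anti-Müllerian hormone, were below 1 CPM in every library. Foxl2, a transcription factor of granulosa cells, was at 112 to 203 CPM. Summed CPM was 2446 to 4441 for 9 theca and stromal markers, led by Acta2 (smooth muscle actin), 14.2 to 21.3 for 7 endothelial markers, 5.53 to 10.8 for 7 immune markers and under 1 for 5 erythrocyte markers. Akt1, the target of the siRNAs, was counted at 529, 428 and 399 CPM after scramble siRNA, 63.9 and 58.6 after pool 1, 52.7 and 55.1 after pool 2, 79.3 and 81.7 after pool 3 and 55.1 and 62.4 after pool 4. Every pool library lay below every scramble library, and the log2 fold change of all pools was −2.87 ± 0.13 (SE, edgeR quasi-likelihood test, adjusted p = 4.41e-07) and −2.76 ± 0.12 without scramble replicate 1.

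Glycolysis turns glucose into pyruvate, which lactate dehydrogenase can reduce to lactate for export by monocarboxylate transporters. In the follicle, granulosa cells are known to run this pathway and to pass pyruvate and lactate to the oocyte, which uses glucose poorly itself. When oxygen is low, prolyl hydroxylases no longer mark the HIF alpha subunits for destruction, and these pair with Arnt and switch on glycolysis genes, Vegfa and other targets. AKT kinases act on the same pathway by known routes that include glucose transporters, hexokinase and the kinases that make fructose 2,6-bisphosphate. HIF activity itself is set largely by protein stability, which mRNA counts do not measure. In bulk samples, fewer cells of a type and less RNA per cell cannot be told apart.

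Per kilobase of transcript, Pkm (pyruvate kinase) was the most abundant member at 388 CPM per kilobase, taken as the mean of the 10 libraries without scramble replicate 1. Next came Aldoa (aldolase A) at 369, Ldha (lactate dehydrogenase A) at 236, Tpi1 (triose phosphate isomerase) at 123 and Hif1a, the highest hypoxia member, at 84.1 CPM per kilobase. The range of Aldoa over those 10 libraries, 342 to 422, overlapped that of Pkm, 313 to 464. At the other end, Ankrd37 and Car9 (carbonic anhydrase 9) had 7 to 33 and 10 to 19 reads per library, which limits what can be seen of them.

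Several members share long stretches of coding sequence with other genes. Gapdh (glyceraldehyde-3-phosphate dehydrogenase), in most tissues among the most abundant mRNAs, was counted at 2.58 to 5.07 CPM. Eno1 (enolase 1) had 0 to 2 reads per library and was not tested. Reads were 75 bases long, so every run of 75 bases in the coding sequence was searched for in the transcripts of other annotated genes (GENCODE vM21). For Gapdh, 94.0% of these windows also occurred in another gene, and 114 of the 121 other genes were pseudogenes. For Pgk1 (phosphoglycerate kinase 1) and Pgam1 (phosphoglycerate mutase 1) every window did, and for Eno1 75.1%. The share was 63.5% for Bnip3l and 52.4% for Bnip3 among the hypoxia members, 24.1% for Pkm, 22.1% for Ldhb, 17.5% for Gpi1, 8.99% for Ldha, 4.60% for Tpi1 and 1.86% for Aldoa. No window was shared with a gene elsewhere for the other 26 members. How the authors' counting treated reads with several matches is not given in the sources used here, so the levels of these genes, and any change in them, are uncertain. The window below, bases 507 to 581 of Gapdh transcript ENSMUST00000117757.8 and inside its coding sequence, is shown because it occurs unchanged in 49 other annotated genes.
Gapdh: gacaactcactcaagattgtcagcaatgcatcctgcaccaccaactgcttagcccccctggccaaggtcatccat

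**Figure D1:**
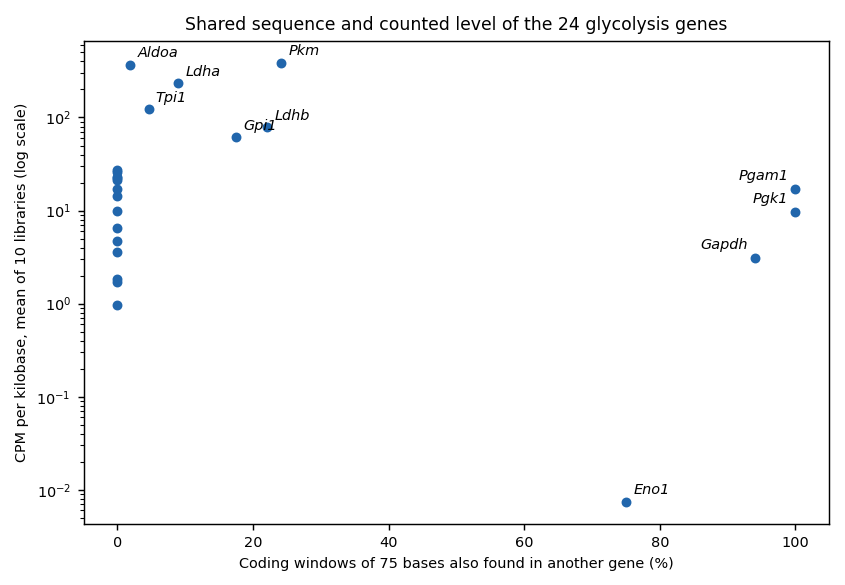
Percent of 75-base coding windows found in another gene (x axis) against counted level in CPM per kilobase on a log scale (y axis, mean of 10 libraries without scramble replicate 1), 1 point per glycolysis gene. Gapdh, at 94.0% shared windows, sits at 3.07 CPM per kilobase and Eno1, at 75.1%, at 0.00747, while Pgk1 and Pgam1, with every window shared, sit at 9.60 and 17.1 and Aldoc, with none shared, at 0.962. Pkm and Aldoa, with 24.1% and 1.86%, are the highest points.

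The HIF dimer is known to bind DNA at a core written ACGTG or GCGTG, so the 250 bases upstream of each member's start were searched for both on either strand (RefSeq starts, GRCm38.p6, the assembly behind mm10). The palindrome CACGTG was counted once per strand, and overlapping matches were counted separately. Of 34 members with an entry, 31 had a core in at least 1 window, 20 of 23 glycolysis members and 11 of 11 hypoxia members. Over all 27025 genes with an entry the share was 41.5%. In both counts a gene with several starts counts if any of its windows holds a core, and a window may overlap annotated exons. Hk1, Vegfa and Pkm count only through windows with 186, 218 and 140 annotated exon bases, and the other window of each held no core. Aldoc (105 and 136 exon bases), Pfkfb4 (124), Egln1 (70), Car9 (60) and Pfkl (53) also had cores only in windows that overlap exons. Further members did so with smaller overlaps, such as Slc2a1 (34). Member windows were also richer in CG dinucleotides, which both cores contain, with a median of 14 against 6 over all windows. Among windows with at least 10 CG dinucleotides, 29 of 33 member windows held a core, against 64.2% of 12417 windows of all genes. A match describes letters only and shows no binding. Ldha has a further window free of annotated exons, with 1 GCGTG core, which is not shown. The windows of Slc16a1, Hk2, Ldha and Hif1a below are examples in which no annotated exon lies. They cover chr3:104638414-104638663, plus strand for Slc16a1, chr6:82774455-82774704, minus strand for Hk2, chr7:46845554-46845803, plus strand for Ldha and chr12:73907617-73907866, plus strand for Hif1a, each written 5′ to 3′ along its gene with the cores in capitals.
Slc16a1: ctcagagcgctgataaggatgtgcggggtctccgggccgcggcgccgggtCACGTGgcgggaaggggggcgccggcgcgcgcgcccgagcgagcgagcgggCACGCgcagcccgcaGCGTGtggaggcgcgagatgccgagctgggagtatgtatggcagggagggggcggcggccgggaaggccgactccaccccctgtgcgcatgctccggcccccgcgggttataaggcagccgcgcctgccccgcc
Hk2: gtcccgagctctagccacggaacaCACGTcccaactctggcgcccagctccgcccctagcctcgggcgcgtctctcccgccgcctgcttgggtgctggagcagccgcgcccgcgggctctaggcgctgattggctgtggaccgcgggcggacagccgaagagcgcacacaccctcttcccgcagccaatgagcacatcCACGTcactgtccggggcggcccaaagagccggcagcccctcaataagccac
Ldha: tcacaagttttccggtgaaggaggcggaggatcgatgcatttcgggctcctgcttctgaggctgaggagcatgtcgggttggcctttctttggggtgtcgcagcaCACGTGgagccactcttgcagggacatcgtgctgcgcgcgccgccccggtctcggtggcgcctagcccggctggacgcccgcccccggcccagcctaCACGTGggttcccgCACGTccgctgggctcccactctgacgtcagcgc
Hif1a: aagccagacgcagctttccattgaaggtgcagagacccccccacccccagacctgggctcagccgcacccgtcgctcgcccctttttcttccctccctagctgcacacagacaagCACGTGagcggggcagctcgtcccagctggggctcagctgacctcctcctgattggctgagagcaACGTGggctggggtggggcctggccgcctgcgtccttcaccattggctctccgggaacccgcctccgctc

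Against scramble, the monocarboxylate transporter Slc16a1 was the member that fell most widely. With all libraries it fell in pools 1, 3 and 4. Slc2a1 and Slc2a3 (glucose transporters), Hk1 (hexokinase 1) and Pfkl (liver-type phosphofructokinase) fell in pool 3, where Ndrg1, a hypoxia target, rose. Over the 8 pool libraries together no member passed the test. When scramble replicate 1 was left out, Slc16a1, Hk1 and Vegfa (vascular endothelial growth factor A) fell in each of the 4 pools.

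The counts behind these statements are edgeR calls at an adjusted p below 0.05, with p-values adjusted over all genes tested. In the comparison of all pools with scramble 0 of 37 members tested were called, against 0.00715% of all genes (1 gene, Akt1). At an unadjusted p below 0.05 there were 15 members (28.9% of all genes), and DESeq2 called 5 (8.33%). Without scramble replicate 3, edgeR called 11 members (16.5%). The median log2 fold change was −0.21 over the 23 glycolysis members tested and −0.07 over the 14 hypoxia members, against −0.02 over all genes. With scramble replicate 1 left out it was −0.10 and −0.09, against a median of 0.0035 over all genes, again with 0 members called (0.469% of all genes called, 12 members and 21.3% of all genes at an unadjusted p below 0.05). When the mean of the pools was instead tested in a fit with 5 groups, 4 members were called with all libraries (6.37% of all genes) and 16 without scramble replicate 1 (35.8%). The members' counts thus rose and fell with those of all genes from fit to fit. Where any member was counted, its share of the 37 members lay above the share of all genes. That difference was not tested.

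Single pools gave 1 member called in pool 1 (1.93% of all genes called), 0 in pool 2 (0.00707%), 6 in pool 3 (11.2%) and 1 in pool 4 (2.57%). In pool 2, 4 members had an unadjusted p below 0.05 (4.62% of all genes), and DESeq2 called 0 (0.198%). Without scramble replicate 1, the edgeR counts of pools 1 to 4 were 12 (28.7%), 8 (4.39%), 19 (48.8%) and 14 (31.0%). As shares of the 37 members these are 32.4%, 21.6%, 51.4% and 37.8% for pools 1 to 4. With both directions counted together, those of pools 1, 3 and 4 lay near the shares of all genes. By direction they did not all lie near: in pool 1 all 12 members called were lower, 32.4% of members against 17.0% of all genes. None was higher there (0 against 11.7%), and in pool 2 there were 7 lower (2.69%) and 1 higher (1.71%). In pool 3 there were 15 lower (26.1%) and 4 higher (22.7%), and in pool 4 12 lower (17.8%) and 2 higher (13.2%). The 4 comparisons share the scramble libraries and so are not independent of each other.

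**Figure D2:**
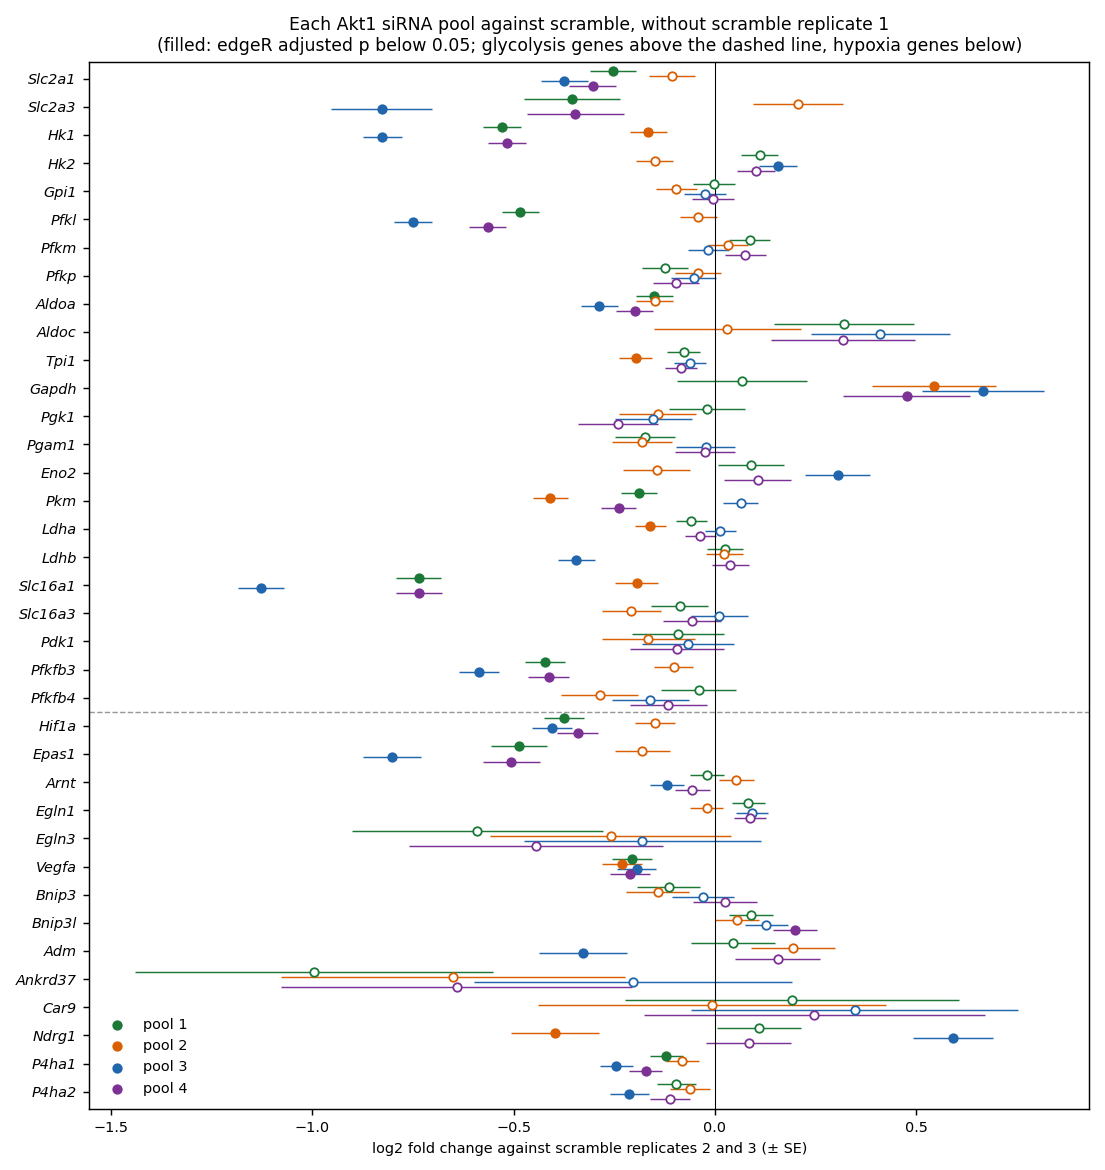
Log2 fold change of each pool (colours) against scramble replicates 2 and 3 on the x axis, with its SE as bars, for the 37 members tested on the y axis. Filled points passed the edgeR test, and the lowest is Slc16a1 in pool 3 at −1.13, while the 4 points of Vegfa lie between −0.23 and −0.19.

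Most members differed between the pools, which does not involve scramble at all. When the 4 pools were tested together for any difference, 24 of 37 members were called, 16 of 23 glycolysis members and 8 of 14 hypoxia members, against 48.6% of all genes tested. Pool 2 differed from the mean of the other pools in 22 members, 13 higher and 9 lower, against 47.6% of all genes (25.3% higher and 22.3% lower). Pool 3 differed from the others in 21, 7 higher and 14 lower, against 44.5% (20.4% higher and 24.1% lower). Pool 1 differed in 2 (2.99% of all genes) and pool 4 in 2 (2.37%). These contrasts use the same 8 libraries, so a gene high in pool 2 counts against pool 3. The count of 24 was 19 with DESeq2 (35.4% of all genes) and 19 when scramble replicates 2 and 3 were added to the fit (42.8%), but 2 when all 11 libraries shared 1 estimate of spread (2.46%). The summed CPM of the 15 granulosa markers moved with the pools as well. It was 5390 to 5582 after scramble siRNA, 4813 to 5202 after pool 2 and 4171 to 4325 after pool 1. It was 4054 to 4272 after pool 4 and 3251 to 3407 after pool 3. Inha, its largest part, was at 3486, 2356 and 2128 CPM after scramble siRNA and 1241 and 1362 after pool 3. Not every granulosa marker moved this way. Amhr2 was at 137, 83.2 and 83.9 after scramble siRNA, 99.8 and 102 after pool 1 and 81.2 and 94.4 after pool 3. Foxl2 was at 152 and 135 after pool 1 and 153 and 153 after pool 4, against 203, 142 and 142. Inhba was at 20.2 CPM in scramble replicate 1 against 454 and 464 in the others. The sum of the 9 theca and stromal markers was 3390 to 4441 after scramble siRNA, 3510 to 3616 after pool 2, 2798 to 2905 after pool 1, 2741 to 2862 after pool 4 and 2446 to 2498 after pool 3. Of these, Acta2 was at 3032, 1948 and 1581 CPM after scramble siRNA and at 891 and 834 after pool 3. Dcn was lower after pool 3 as well, at 110 and 117 against 193, 174 and 204. Col1a1 stayed within the scramble range, at 1369 and 1469 against 1171, 1651 and 1526. The 6 epithelial markers summed to 109.9 to 148 CPM after scramble siRNA and 82.7 to 86.6 after pool 3. They summed to 101 to 103 after pool 1, 116 to 124 after pool 2 and 98.7 to 101 after pool 4. Among them Upk3b was at 55.7, 62.6 and 61.1 CPM after scramble siRNA and 31.2 and 32.2 after pool 3. Msln stayed within the scramble range, at 24.7 and 22.2 after pool 3 against 32.6, 23.6 and 19.1. Endothelial and immune sums were higher after pool 3 (19.0 to 21.3 and 9.74 to 10.8) than after scramble siRNA (14.2 to 15.8 and 5.53 to 8.67). The endothelial sum was also higher after pool 1 (19.0 to 19.7) and pool 4 (16.8 to 17.3). After pool 3 endothelial Kdr was at 9.89 and 8.56 against 2.05, 6.15 and 4.86. Endothelial Emcn was lower, at 5.15 and 4.45 against 9.83, 6.15 and 5.74. Immune Cd68 stayed within the scramble range, at 3.82 and 4.20 against 5.79, 3.68 and 4.61. The 7 oocyte markers summed to 5.41 to 8.06 after scramble siRNA and 4.80 to 5.70 after pool 3. They summed to 4.35 to 4.37 after pool 1, 3.55 to 3.58 after pool 2 and 2.89 to 4.18 after pool 4. The part of these cell markers in the differences described below was not tested.

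Glucose enters the cell through Slc2a1 and Slc2a3 (GLUT1 and GLUT3). Slc2a1 was counted at 89.1, 82.2 and 72.6 CPM after scramble siRNA, 68.2 and 68.2 after pool 1, 74.3 and 71.4 after pool 2, 60.8 and 66.4 after pool 3 and 63.3 and 67.7 after pool 4. Slc2a3, much the lower of the pair per kilobase (1.84 against 21.3 CPM per kilobase), was counted at 6.13, 7.99 and 8.55 CPM after scramble siRNA, 6.01 and 7.56 after pool 1, 9.88 and 9.41 after pool 2, 4.82 and 5.08 after pool 3 and 7.08 and 6.49 after pool 4. For both genes the pool 2 libraries lay above all libraries of pools 1, 3 and 4, and the pool 3 mean was the lowest. Against scramble in pool 3 Slc2a1 changed by −0.42 ± 0.10 log2 (SE, edgeR adjusted p = 0.0328) and Slc2a3 by −0.68 ± 0.18 (adjusted p = 0.0465). With each of the 11 libraries left out in turn, Slc2a1 was called in 2 of 11 fits (edgeR adjusted p up to 0.275) and Slc2a3 in 1 (up to 0.286), in both cases including the fit without scramble replicate 1. In that fit both fell in pools 1, 3 and 4 and neither was called in pool 2.

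The 2 hexokinases, which trap glucose as glucose 6-phosphate, went in opposite directions between the pools. Hk1, the widely expressed form, was counted at 110.3, 131 and 119 CPM after scramble siRNA, 90.2 and 91.6 after pool 1, 113 and 112 after pool 2, 75.5 and 74.8 after pool 3 and 89.6 and 92.8 after pool 4. Hk2, the form known as inducible by insulin and by HIF, was counted at 93.5, 135 and 148 CPM after scramble siRNA, 157 and 163 after pool 1, 129.9 and 128 after pool 2, 165 and 170.3 after pool 3 and 161 and 155 after pool 4. Pool 3 was thus lowest for Hk1 and highest for Hk2, and pool 2 was the reverse within the pools. Relative to the mean of the other pools, pool 2 stood at 0.46 ± 0.03 for Hk1 (edgeR adjusted p = 1.64e-11) and at −0.27 ± 0.03 for Hk2 (adjusted p = 1.54e-07). Leaving out scramble replicate 1, Hk1 fell to 72.7%, 90.3%, 60.1% and 73.0% of the mean CPM of scramble replicates 2 and 3 in pools 1 to 4, and Hk2 rose in pool 3 alone (0.16 ± 0.05, adjusted p = 0.00823). Summed per kilobase, Hk1 and Hk2 together ranged from 49.9 in pool 3 to 52.7 CPM per kilobase in pool 2 among the pool means. Scramble replicates 2 and 3 lay above these, at a mean of 58.1. Hk1 made up 39.1% ± 0.668 of the sum in pool 3 and 55.6% ± 0.118 after pool 2 (SD, n = 2 each), against 55.8% in scramble replicates 2 and 3.

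Gpi1, which converts glucose 6-phosphate to fructose 6-phosphate, did not pass the test among the pools, with group means of 164 CPM in pool 2 to 181 in pool 1 and 248 in scramble replicate 1. In the single contrast of pool 2 with the other pools it was lower, at −0.08 ± 0.03 (edgeR adjusted p = 0.024).

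Phosphofructokinase makes the committed step of the pathway, and among its 3 subunit genes Pfkl alone was called. Pfkl was counted at 157, 104 and 100.3 CPM after scramble siRNA, 75.4 and 77.7 after pool 1, 101 and 100.1 after pool 2, 61.8 and 67.3 after pool 3 and 72.0 and 72.0 after pool 4. Pool 2 sat at the level of scramble replicates 2 and 3, and the 6 libraries of pools 1, 3 and 4 all lay below them. In pool 3 the change against scramble was −0.96 ± 0.18 log2 (SE, edgeR adjusted p = 0.0118), and −0.75 ± 0.05 without scramble replicate 1 (adjusted p = 3.4e-11). The Pfkl and Hk1 calls in pool 3 were lost when either pool 3 library was left out (edgeR adjusted p up to 0.134 and 0.0603). The muscle-type Pfkm and platelet-type Pfkp showed no such step: their contrasts of pool 2 with the other pools were −0.01 and 0.05, with 95% intervals of −0.08 to 0.06 and −0.03 to 0.13, against 0.56 (0.50 to 0.62) for Pfkl. Per kilobase, Pfkl made up 51.2% of the 3 subunits in scramble replicates 2 and 3, 50.4% after pool 2, 42.7% after pool 1, 41.3% after pool 4 and 38.9% after pool 3.

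Pfkfb3, one of the enzymes that make fructose 2,6-bisphosphate, the known activator of phosphofructokinase, followed Pfkl among the pools. It was counted at 37.5, 59.9 and 61.2 CPM after scramble siRNA, 48.1 and 46.6 after pool 1, 56.7 and 57.5 after pool 2, 42.1 and 43.8 after pool 3 and 46.7 and 48.2 after pool 4. Scramble replicate 1 lay below every other library, and all pool libraries lay below scramble replicates 2 and 3. The pool 2 contrast was 0.37 ± 0.04 (edgeR adjusted p = 2.73e-08) and the pool 3 contrast −0.28 ± 0.04 (adjusted p = 5.71e-06). Against scramble it fell in pools 1, 3 and 4 (−0.42, −0.59 and −0.41), and in pool 2 stood at −0.10 (adjusted p = 0.292). The other regulators, Pfkfb4 and Pdk1, which encodes a kinase that inhibits pyruvate dehydrogenase, did not pass the test among the pools (adjusted p = 0.147 and 0.835).

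**Figure D3:**
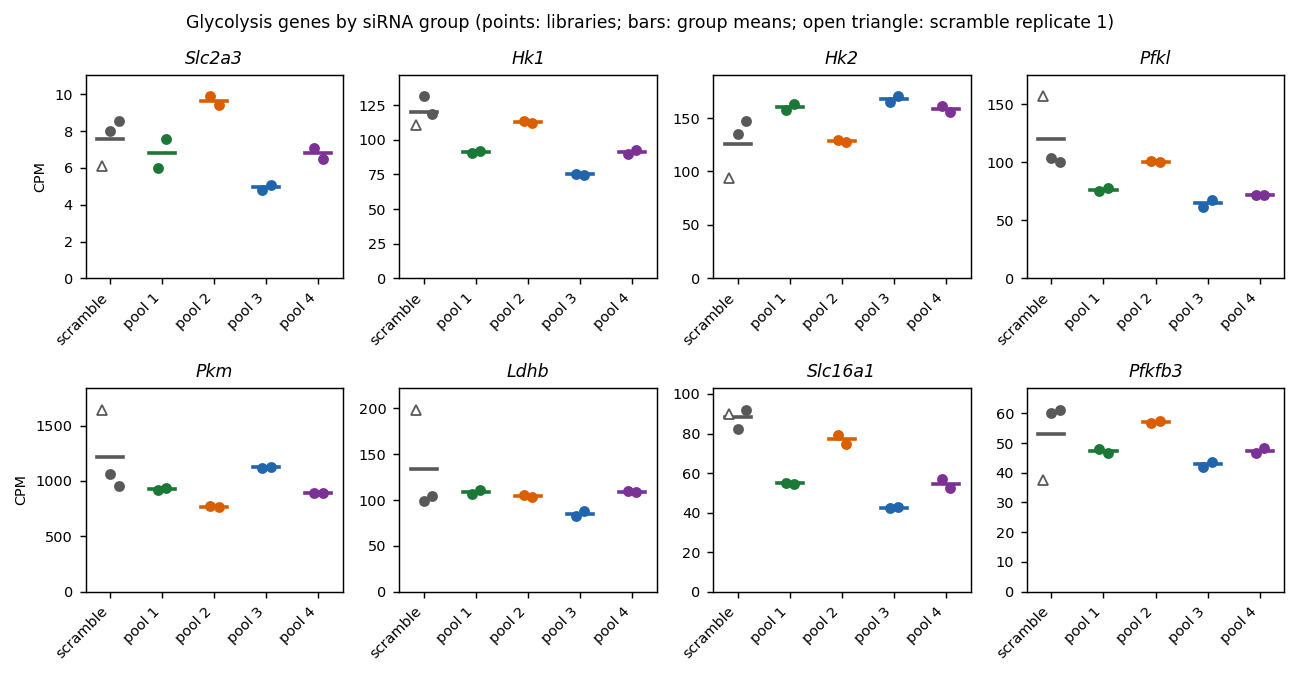
CPM (y axes, from 0) of 8 glycolysis genes by siRNA group (x axes), with 1 point per library and a bar at each group mean. Among the pools, Slc2a3, Hk1, Pfkl, Slc16a1 and Pfkfb3 are lowest in pool 3 and highest in pool 2, Hk2 and Pkm are the reverse, and the open triangle of scramble replicate 1 stands far above the other scramble libraries for Pfkl, Pkm and Ldhb.

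The aldolase step splits the sugar into 3-carbon units. Aldoa was counted at 1067, 654 and 579.6 CPM after scramble siRNA, 576 and 589 after pool 1, 563 and 562 after pool 2, 529.5 and 546 after pool 3 and 559.5 and 562 after pool 4. Scramble replicate 1 lay far above all others, and pool 3 was the lowest pool. Among the pools Aldoa was called with small contrasts, 0.06 ± 0.03 for pool 2 and −0.12 ± 0.03 for pool 3 (edgeR adjusted p = 0.039 and 0.000505). It fell against scramble in pools 1, 3 and 4 (−0.15, −0.29 and −0.20) and was −0.15 in pool 2 (adjusted p = 0.0724). Its retrogenes Aldoart1 and Aldoart2 are counted as genes of their own, with 61.0 to 81.3 and 50.1 to 55.8 CPM. Aldoc, at 47 to 129 reads per library, was not called among the pools (adjusted p = 0.226).

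Tpi1, which interconverts the 3-carbon sugars, was counted at 367, 205 and 199 CPM after scramble siRNA, 203 and 198 after pool 1, 180.0 and 177 after pool 2, 207 and 205 after pool 3 and 195 and 202 after pool 4. Both pool 2 libraries lay below all other libraries, by −0.12 ± 0.03 log2 against the other pools (edgeR adjusted p = 0.00114). Tpi1 fell against scramble in pool 2 (−0.20, adjusted p = 0.00448) and was not called in the other pools. Gapdh, with the doubt about its copies above, was counted at 5.02, 2.58 and 3.27 CPM after scramble siRNA, 3.28 and 3.11 after pool 1, 4.14 and 4.45 after pool 2, 5.07 and 4.76 after pool 3 and 4.42 and 4.03 after pool 4. On 70 to 164 reads per library, it was lower in pool 1 than in the other pools (−0.50 ± 0.11, edgeR adjusted p = 0.0173) and higher in pool 3 (0.30 ± 0.11, adjusted p = 0.0264). Against scramble it rose in pools 2, 3 and 4 (0.54, 0.67 and 0.48, adjusted p = 0.0469, 0.00101 and 0.0257), and it was the only member called higher in more than 1 pool. Scramble replicate 1, left out there, was at the level of pool 3.

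Between glyceraldehyde 3-phosphate and phosphoenolpyruvate, Pgk1 did not pass the test among the pools (edgeR adjusted p = 0.103). Pgam1 did, and was counted at 32.0, 28.2 and 34.0 CPM after scramble siRNA, 29.9 and 27.7 after pool 1, 28.3 and 27.0 after pool 2, 32.5 and 32.5 after pool 3 and 31.8 and 31.9 after pool 4. Pools 3 and 4 lay above pools 1 and 2, and scramble replicates 2 and 3 spanned that gap. In the contrasts of single pools with the others Pgam1 was not called (edgeR adjusted p from 0.0694 for pool 2 to 0.364 for pool 4). No pool was called against scramble. Every coding window of both genes is shared with another gene.

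Eno2, the neuronal enolase, was counted at 16.1, 12.2 and 12.0 CPM after scramble siRNA, 13.5 and 13.6 after pool 1, 11 and 11.2 after pool 2, 15.6 and 16.2 after pool 3 and 13.5 and 13.7 after pool 4. Within the pools it was lowest in pool 2 and highest in pool 3, with contrasts of −0.31 ± 0.07 and 0.29 ± 0.06 (edgeR adjusted p = 0.000526 and 0.000723). It rose against scramble in pool 3 (0.30 ± 0.08, adjusted p = 0.00352). Eno1 itself had no level to compare, and the gene Eno1b, which shares its coding sequence, had 585 to 1406 reads per library.

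Pkm, which makes pyruvate, was counted at 1644, 1061 and 956 CPM after scramble siRNA, 916 and 939 after pool 1, 775 and 762 after pool 2, 1115 and 1129 after pool 3 and 892 and 891 after pool 4. Pool 3 lay above both scramble replicates 2 and 3, and pool 2 lay below every other library. The pool 2 contrast was −0.28 ± 0.03 (edgeR adjusted p = 7.6e-09) and the pool 3 contrast 0.34 ± 0.02 (adjusted p = 4.43e-10). Against scramble replicates 2 and 3 alone, Pkm fell in pools 1, 2 and 4 (−0.19, −0.41 and −0.24) and was not called in pool 3 (0.06 ± 0.04, adjusted p = 0.239).

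The lactate dehydrogenase subunits differed in their pattern. Ldha, the form that favours lactate production, was counted at 785, 438 and 418 CPM after scramble siRNA, 429.9 and 432 after pool 1, 395 and 381 after pool 2, 459 and 461 after pool 3 and 432 and 439 after pool 4. Ldhb, the form that favours pyruvate, was counted at 199, 99.3 and 105 CPM after scramble siRNA, 107 and 110.5 after pool 1, 106 and 104 after pool 2, 82.9 and 87.8 after pool 3 and 109 and 109 after pool 4. Pool 3 was the highest pool for Ldha and the lowest library pair of all for Ldhb. Against the other pools, pool 3 stood at 0.10 ± 0.02 for Ldha (edgeR adjusted p = 0.00303) and −0.37 ± 0.03 for Ldhb (adjusted p = 4.85e-09). Against scramble Ldhb fell in pool 3 (−0.34 ± 0.05) and Ldha in pool 2 (−0.16 ± 0.04). Per kilobase Ldha made up 79.5% ± 0.597 of the pair in pool 3 and 72.7% ± 0.218 after pool 2 (SD, n = 2 each).

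Lactate and pyruvate leave or enter the cell through Slc16a1 (MCT1) and Slc16a3 (MCT4), and these also moved apart. Slc16a1 was counted at 89.9, 82.4 and 92.1 CPM after scramble siRNA, 55.2 and 54.5 after pool 1, 79.2 and 74.9 after pool 2, 42.3 and 42.6 after pool 3 and 57.0 and 52.4 after pool 4. All 8 pool libraries lay below all 3 scramble libraries, with pool 2 close to scramble and pool 3 at 48.7% of the mean of scramble replicates 2 and 3. Against scramble its log2 fold change was −0.74 ± 0.09 for pool 1, −1.12 ± 0.09 for pool 3 and −0.73 ± 0.09 for pool 4 (SE, edgeR adjusted p = 0.00726, 0.000498 and 0.00643). In pool 2 it was −0.19 ± 0.09 (adjusted p = 0.611), and without scramble replicate 1 the value was −0.19 ± 0.05 (adjusted p = 0.0437). Over all pools the fold change was −0.66 ± 0.19 (adjusted p = 0.107); in that fit the pools form 1 group, so their differences enter its spread. The pool 3 call held with any single library left out, while that of pool 1 or pool 4 was lost when either library of that pool was left out (edgeR adjusted p up to 0.152 and 0.122).

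Slc16a3, whose promoter window holds 2 ACGTG cores and which is known as a HIF target, was counted at 39.7, 30.5 and 26.9 CPM after scramble siRNA, 29.8 and 26.9 after pool 1, 24.3 and 26.1 after pool 2, 30.5 and 31.1 after pool 3 and 28.1 and 29.6 after pool 4. It was lower in pool 2 than in the other pools (−0.16 ± 0.05, edgeR adjusted p = 0.0148) and higher in pool 3 (0.13 ± 0.05, adjusted p = 0.047), and it was not called against scramble in any pool. Slc16a1 made up 74.8% of the pair per kilobase in scramble replicates 2 and 3, 75.0% in pool 2 and 57.5% in pool 3.

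Among the HIF subunits, Hif1a was by far the most abundant alpha subunit, 94.3% of the sum of Hif1a and Epas1 per kilobase in scramble replicates 2 and 3. Hif1a was counted at 191, 444 and 469.7 CPM after scramble siRNA, 387 and 351 after pool 1, 403 and 431 after pool 2, 368 and 367 after pool 3 and 388 and 365 after pool 4. Scramble replicate 1 was below every other library, at 191 CPM, and every pool library lay below scramble replicates 2 and 3. With all libraries Hif1a was not called in any pool, whereas without that library it fell in pools 1, 3 and 4 (−0.38, −0.41 and −0.34, edgeR adjusted p = 6.32e-06, 9.04e-07 and 1.95e-05) and not in pool 2 (−0.15 ± 0.05, adjusted p = 0.106). The pool 2 contrast with the other pools, which uses no scramble library, was 0.23 ± 0.03 (adjusted p = 1.18e-05).

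Epas1 (HIF-2 alpha) was counted at 19.5, 32.6 and 31.9 CPM after scramble siRNA, 23.5 and 24.8 after pool 1, 28.6 and 29.0 after pool 2, 18.3 and 20.9 after pool 3 and 22.4 and 24.9 after pool 4. Its order was the same as that of Slc16a1 and Hk1 within the pools, with contrasts of 0.42 ± 0.05 for pool 2 and −0.41 ± 0.06 for pool 3 (edgeR adjusted p = 1.64e-06 and 6.92e-06). Against scramble it fell in pools 1, 3 and 4 (−0.49, −0.80 and −0.51) and was −0.18 in pool 2 (adjusted p = 0.16). Arnt, the shared partner subunit, was counted at 58.1, 99.6 and 101 CPM after scramble siRNA, 101 and 106 after pool 1, 104 and 107 after pool 2, 99.3 and 97.4 after pool 3 and 102 and 99.9 after pool 4. Apart from scramble replicate 1 all libraries lay within a narrow range, and the called contrasts were small, 0.12 ± 0.03 for pool 2 and −0.11 ± 0.03 for pool 3. Arnt fell against scramble in pool 3 (−0.12 ± 0.04, edgeR adjusted p = 0.0272).

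Egln1, the main oxygen-sensing prolyl hydroxylase of HIF, was counted at 158, 131 and 133 CPM after scramble siRNA, 149 and 145 after pool 1, 132 and 132 after pool 2, 149 and 151 after pool 3 and 145 and 148 after pool 4. Pool 2 lay at the level of scramble replicates 2 and 3, and the other pools lay above them. The pool 2 contrast was −0.11 ± 0.03 (edgeR adjusted p = 0.00392), and no pool was called against scramble. Egln3, with 18 to 37 reads per library, was not called in any comparison.

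**Figure D4:**
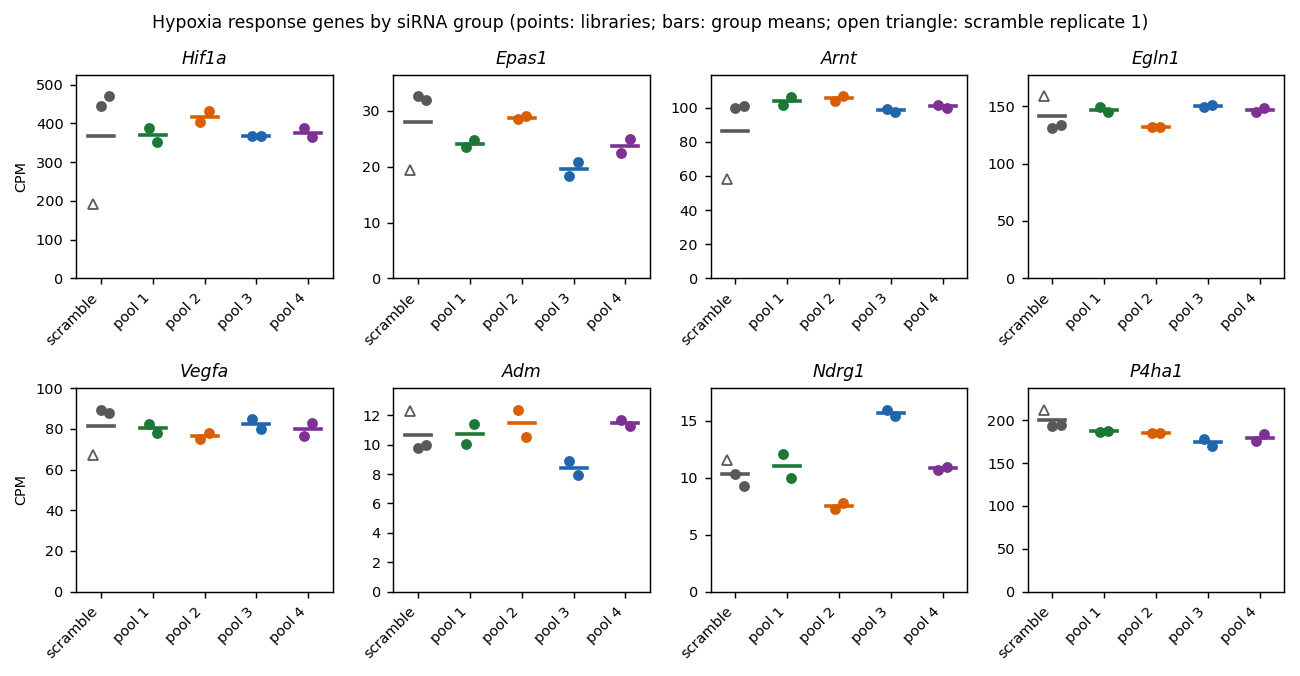
CPM (y axes, from 0) of 8 hypoxia response genes by siRNA group (x axes), with 1 point per library and a bar at each group mean. Scramble replicate 1 (open triangle) is far below the other libraries for Hif1a and Arnt, Ndrg1 is lowest in pool 2 and highest in pool 3, and Vegfa differs little between the pools.

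Of the secreted targets, Vegfa, which drives vessel growth in the follicle and corpus luteum, was nearly level across the pools and Adm was not. Vegfa was counted at 67.2, 89.4 and 87.6 CPM after scramble siRNA, 82.6 and 78.2 after pool 1, 74.8 and 77.9 after pool 2, 84.6 and 80.1 after pool 3 and 76.6 and 83.0 after pool 4. It did not pass the test among the pools (edgeR adjusted p = 0.934), and the 95% interval of the pool 2 contrast ran from −0.10 to 0.05. With scramble replicate 1 left out it fell in each pool, at −0.21 ± 0.05, −0.23 ± 0.05, −0.19 ± 0.05 and −0.21 ± 0.05 in pools 1 to 4 (adjusted p = 0.00307, 0.00742, 0.00262 and 0.00267). With that library, which was the lowest for Vegfa, no pool was called, and over all pools without it the adjusted p was 0.0764 at −0.21 ± 0.04.

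Adm (adrenomedullin, a vasodilator peptide) was counted at 12.3, 9.80 and 9.98 CPM after scramble siRNA, 10.0 and 11.4 after pool 1, 12.4 and 10.5 after pool 2, 8.86 and 7.96 after pool 3 and 11.7 and 11.3 after pool 4. Pool 3 was below all other libraries, with a contrast of −0.46 ± 0.09 against the other pools (edgeR adjusted p = 0.000187). It fell against scramble in pool 3 (−0.33 ± 0.11, adjusted p = 0.0176).

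Bnip3 and Bnip3l, which mark mitochondria for removal, did not pass the test among the pools (edgeR adjusted p = 0.217 and 0.0536). Bnip3l, the more abundant of the pair per kilobase, was counted at 76.2, 57.8 and 64.0 CPM after scramble siRNA, 70.4 and 65.1 after pool 1, 62.9 and 64.9 after pool 2, 72.3 and 69.3 after pool 3 and 73.6 and 72.1 after pool 4. Scramble replicate 2 was its lowest library, and without scramble replicate 1 the gene rose in pool 4 (0.20 ± 0.05, adjusted p = 0.00848). Both genes share many coding windows with copies.

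Ndrg1, a stress and hypoxia target linked to differentiation, was called in opposite directions in 2 pools. It was counted at 11.5, 10.3 and 9.22 CPM after scramble siRNA, 12.1 and 9.99 after pool 1, 7.29 and 7.73 after pool 2, 16 and 15.4 after pool 3 and 10.7 and 10.9 after pool 4. The pool 3 libraries lay above every scramble library and the pool 2 libraries below every one. Against scramble it rose in pool 3 at 0.53 ± 0.12 log2 (SE, edgeR adjusted p = 0.0293), and without scramble replicate 1 at 0.59 ± 0.10 (adjusted p = 4.4e-05), while in pool 2 it was then lower, at −0.40 ± 0.11 (adjusted p = 0.0419). The pool 3 call with all libraries held in 3 of 11 fits that each left out 1 library (edgeR adjusted p up to 0.209). Ankrd37 and Car9 were at or below 1.01 CPM in every library and were not called in any comparison.

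P4ha1, the alpha subunit of the collagen prolyl hydroxylase, was counted at 212, 194 and 194 CPM after scramble siRNA, 187 and 187 after pool 1, 185 and 186 after pool 2, 178 and 170.5 after pool 3 and 175 and 184 after pool 4. As for Slc16a1, every pool library lay below every scramble library, a pattern found in 2 members and in 2.65% of all genes. Leaving out scramble replicate 1, it fell in pools 1, 3 and 4 (−0.12, −0.24 and −0.17, edgeR adjusted p = 0.0302, 4.52e-05 and 0.0029). P4ha2, its paralog, was counted at 80.4, 59.2 and 59.7 CPM after scramble siRNA, 59.0 and 57.5 after pool 1, 55.9 and 59.3 after pool 2, 53.9 and 55.3 after pool 3 and 57.5 and 57.3 after pool 4. Only pool 3 was called for it without scramble replicate 1 (−0.21 ± 0.05, adjusted p = 0.00116).

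Both libraries of pool 2 lay above all libraries of pools 1, 3 and 4 in 8 members, against 18.8% of all genes, and below them in 14, against 31.8%. These CPM carry no TMM scaling: over all genes the median ratio of pool 2 to pools 1, 3 and 4 was −0.06 log2, and some members in these counts have small scaled contrasts, such as Pfkm (−0.01). The scaled test gave 13 members higher and 9 lower in pool 2. Within the pools, 2 orders of plain CPM covered 15 of the 38 members. In Slc2a3, Hk1, Pfkl, Slc16a1, Pfkfb3 and Epas1 both pool 3 libraries were lowest, pools 1 and 4 lay between and both pool 2 libraries were highest, an order seen in 11.3% of all genes. In Hk2, Aldoc, Tpi1, Eno2, Pkm, Ldha, Slc16a3, Egln1 and Ndrg1 the order was reversed, as in 17.1% of all genes. Genes for the same step stood in both groups, such as the 2 hexokinases and the 2 monocarboxylate transporters. All pool libraries lay below scramble replicates 2 and 3 for 7 members (Hk1, Slc16a1, Pfkfb3, Hif1a, Epas1, Vegfa and P4ha1), against 5.26% of all genes, and above them for 1 (Pfkm), against 12.7%. Akt1 itself was highest among the pools in pool 3, at 79.3 and 81.7 CPM.

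Of 38 further genes of glucose use, 27 could be tested and 12 were called among the pools, against 48.6% of all genes. The 5 with the smallest p were G6pdx, the entry enzyme of the pentose phosphate pathway, Pfkfb2, the pyruvate dehydrogenase kinases Pdk2 and Pdk4, and the transporter Slc2a10. G6pdx was higher in pool 2 (0.46 ± 0.03) and lower in pool 3 (−0.51 ± 0.03), and so were Pfkfb2 (0.39 and −0.32), Pdk2 (0.53 and −0.54) and Slc2a10 (0.41 and −0.24). Pdk4 was lower in pool 2 (−0.15) and higher in pool 3 (0.31). Eno3, the muscle enolase, fell over all pools without scramble replicate 1 (−0.70 ± 0.08, edgeR adjusted p = 0.00918), and was counted at 91.8, 49.0 and 44.7 CPM after scramble siRNA, 30.1 and 30.4 after pool 1, 33.4 and 31.5 after pool 2, 26.8 and 29.2 after pool 3 and 29.4 and 28.6 after pool 4. With all libraries its adjusted p was 0.0819 at −1.08 ± 0.17, although every pool library lay below every scramble library.

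Of 39 further hypoxia genes, 38 could be tested and 25 were called among the pools, against 48.6% of all genes. The 5 with the smallest p were Plod1, a collagen lysyl hydroxylase, the transcription factors Arnt2 and Bhlhe40, the coregulator Cited2, and Vhl, which recruits the ligase that degrades HIF alpha. Plod1 (0.83 in the pool 2 contrast and −0.50 in that of pool 3) and Vhl (0.49 and −0.47) were high in pool 2 and low in pool 3. Arnt2 (−0.44 and 0.43), Bhlhe40 (−0.34 and 0.36) and Cited2 (−0.27 and 0.32) were the reverse. Ddit4, an inhibitor of mTORC1 induced by hypoxia, fell over all pools without scramble replicate 1 (−0.37 ± 0.07, edgeR adjusted p = 0.0466). It was counted at 42.7, 35.7 and 35.3 CPM after scramble siRNA, 29.0 and 26.7 after pool 1, 27.5 and 31.9 after pool 2, 29.1 and 29.3 after pool 3 and 27.8 and 27.9 after pool 4, and with all libraries its adjusted p was 0.0819 at −0.44 ± 0.08.

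The authors' deposited table, which compares the pools together with scramble, gave an adjusted p below 0.05 for 985 of 10136 genes (9.72%). Members lower in the authors' deposited table numbered 5, Slc16a1 (−0.55), Pfkl (−0.56), Aldoa (−0.44), Slc2a1 (−0.29) and P4ha1 (−0.17, log2 fold changes). None was higher in the authors' deposited table, 22 were not called, and 11 had no adjusted p, among them Tpi1, Ldha, Ldhb, Hif1a, Arnt and Vegfa. Of the 5, Aldoa had a log2 fold change of −0.49 ± 0.14 with scramble replicate 1 and −0.20 ± 0.06 without it by edgeR, and was called in neither (adjusted p = 0.107 and 0.135).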

How the data were processed

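Per the labels' protocols, a stranded mRNA kit turned 1.3 µg of total RNA into each library, sequenced from one end for 75 bases. Build mm10 is named in the submitters' processing notes, as are TopHat2 as an aligner, featureCounts 1.5.0-p2 as a counter, cutadapt 1.9.1, DESeq2, FastQC 0.11.5 and bcl2fastq 2.15.0. Whether strand was used in counting is not given in the sources used here, so reads of overlapping genes cannot be separated. The authors deposited raw counts per gene symbol for each library, with 92 ERCC spike-in sequences that were left out of library sizes and tests (0.268% to 0.788% of the counts). The authors' deposited table has columns for the mean normalized count (a signal), the log2 fold change, its standard error, a test score and p-values. CPM was computed without further scaling.

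Tests used edgeR 4.0.16 under R 4.3.3 on the counts (TMM scaling, filterByExpr, two-sided quasi-likelihood F test, Benjamini-Hochberg adjustment over all genes tested, threshold 0.05), and the functions were tested on simulated data. All pools against scramble used 2 groups (13989 genes), each pool against scramble 5 groups (14144 genes), and the contrasts among pools the 8 pool libraries alone (14056 genes). The SE is the fold change divided by the square root of F, and 95% intervals use normal limits. Alternatives were DESeq2 1.42.0, limma 3.58.1 (voom), other scaling and filters, length offsets, a replicate block and leaving out each library. The fits against scramble with the replicate block left out scramble replicate 3. The members and lists were chosen with earlier results of these data known. Genes given with every library's value are those called among the pools, or called in all pools or in a single pool against scramble, and for each functional role with none of these the member of highest mean CPM. Further pathway genes are the 5 of each list with the smallest p among the pools and up to 2 called over all pools. Vegfa's values, Aldoart1, Aldoart2 and Eno1b were added after the values were seen. Gene symbols were matched to GENCODE vM21, and promoter windows are RefSeq's.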

Additional observations from a re-analysis of the deposited data

Results flagged for a closer look

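The test among the 4 pools called 24 of the 37 members tested, against 48.6% of all genes, so their difference from scramble was not the same in every pool by that test. When all 11 libraries shared 1 estimate of spread, 2 members were called (2.46% of all genes). Without scramble replicate 1 Ndrg1 was higher than scramble in pool 3 and lower in pool 2, both called, and its adjusted p in the test among the pools was 3.28e-07 (edgeR quasi-likelihood test).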

How the results depend on the processing

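Counts of members called against scramble changed when single scramble libraries were left out, and the share of all genes called, given in percent after most counts, moved with them. Over all pools the 0 members became 5 with DESeq2 (8.33%), 13 with voom sample quality weights (26.7%), 4 with the mean of the pools in 5 groups (6.37%) and 16 with that mean and without scramble replicate 1 (35.8%). Leaving out single libraries gave 0 to 11: 0 without scramble replicate 1 and 11 without scramble replicate 3 (16.5%). For pool 1 the count of 1 became 3 with DESeq2 (5.57%), 12 with quality weights (25.9%), 2 with transcript length offsets (5.83%) and 14 with offsets and without scramble replicate 1 (30.4%), or 0 to 12 with single libraries left out. For pool 2 the 0 became 8 with quality weights (3.45%) and 8 with offsets and without that library (4.7%), or 0 to 8. For pool 3 the 6 became 19 (45.7%), 10 (21.1%) and 20 (50.4%) under quality weights, offsets, and offsets without that library, or 1 to 19. For pool 4 the 1 became 5 with DESeq2 (6.17%), then 14 (28.7%), 2 (7.03%) and 17 (32.3%), or 0 to 14. Among the pools, 24 became 2 when all 11 libraries shared 1 spread (2.46%), and 19 to 25 with single libraries left out. In that fit the pool 2 contrast went from 22 to 4 (5.25%; 18 to 25) and that of pool 3 from 21 to 2 (1.83%; 16 to 22). The 2 members of the pool 1 contrast became 1 with 10 libraries in 5 groups (1.73%), 0 with 11 libraries (0.0141%), 0 with DESeq2 (1.67%) and 1 with offsets (2.97%), or 0 to 2, and the 2 of pool 4 became 0 (1.48%), 0 (0.0%), 0 (1.64%) and 1, or 0 to 2.

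Some directions reversed, and the cause was not tested. Hif1a in pools 1, 3 and 4 turned positive with voom (0.0495, 0.0288 and 0.0866) and with single libraries left out (−0.375 to 0.163 in pool 1, −0.406 to 0.14 in pool 3, −0.341 to 0.199 in pool 4). Arnt in pool 3 turned negative with quality weights (−0.10), without scramble replicate 1 (−0.12), and with length offsets and without it (−0.0858). Vegfa ranged over −0.207 to 0.00556 in pool 1, −0.195 to 0.0263 in pool 3 and −0.211 to 0.00267 in pool 4 with single libraries left out, and Gapdh in pool 4 over −0.0166 to 0.477.

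Same-numbered libraries showed little shared deviation between groups (correlations −0.05 to 0.08), which cannot tell whether they were prepared together. The fit with a replicate block also left out scramble replicate 3, so its changes cannot be credited to the block alone. In it 7 members were called over all pools (11.6% of all genes). Hif1a stood at 0.21, 0.18 and 0.25 in pools 1, 3 and 4, and Vegfa at 0.0175 in pool 3. Without scramble replicate 3 and with no block, 11 members were called (16.5%), and Hif1a stood at 0.163, 0.140 and 0.199. The mean of the pools without scramble replicate 1, and the offsets without it, were added after seeing the data. With 2 libraries a pool, leaving out 1 assumes that the other varies like the remaining groups. Among the members tested, Egln3, Ankrd37 and Car9 have the fewest reads, under 40 per library, and wide errors.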
